A study of Mus musculus with 24 samples.

Results

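The nuclear lamina genes measured here were Lmnb1, Lmnb2, Lmna, Lbr, Tmpo and Emd, 6 of the 18193 genes that could be named on the array. They were read by 17 of its 34945 probe sets that carry 1 gene symbol: 2 for Lmnb1, 2 for Lmnb2, 5 for Lmna, 1 for Lbr, 6 for Tmpo and 1 for Emd. The genes were listed by name, and every single-gene probe set of each was kept. The array set compared 2 groups of 12 arrays from 12 lymphomas. In the ADR group, primary B-cell lymphoma cells from lymph nodes of Eμ-Myc transgenic mice had been cultured with 0.05 µg/ml Adriamycin (doxorubicin, a drug that damages DNA) for 5 days, and in the untreated group cells of the same lymphomas had been left without it. Both groups carried the Myc transgene, expressed in the B lineage, and a retroviral Bcl2 gene with puromycin selection, which shields the cells from apoptosis, and both were grown on gamma-irradiated NIH 3T3 mouse fibroblasts, a feeder layer. The labels used here give neither age nor strain of the mice. Each lymphoma was represented by 1 array per group, so every comparison was made within lymphomas.

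The nuclear lamina is a meshwork of intermediate filament proteins under the inner nuclear membrane. B-type lamins, encoded by Lmnb1 and Lmnb2, keep a farnesyl lipid and stay bound to the membrane, while A-type lamins, encoded by Lmna, are also found inside the nucleus. A-type lamins are abundant in mesenchymal cells such as fibroblasts and scarce in many blood cells, and loss of lamin B1 is widely used as a marker of senescence, in which cells stop dividing for good. Lbr, Tmpo and Emd encode proteins that tie lamins to chromatin. Which lamina transcripts ADR shifted within a lymphoma, and whether B-type and A-type lamins moved together, was asked of these arrays.

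After ADR the B-type lamin genes, Lbr and Tmpo were lower and the A-type lamin gene was higher. Lmnb1, Lmnb2, Lbr and Tmpo fell in all 12 lymphomas, Lmna rose in 11 of 12, and Emd did not pass the test. Markers of other cells moved in the same arrays, with 27 of 31 fibroblast markers and 15 of 23 macrophage markers higher. With the fibroblast markers as a covariate the calls of Lbr and Tmpo held and those of Lmnb1 (-0.69, limma adjusted p = 0.249), Lmnb2 (-0.31, 0.25) and Lmna (0.23, 0.794) were lost. The fibroblast marker mean rose with ADR in 11 of 12 lymphomas, and that fit called 1072 genes, against 4829 without the covariate. In the fit of probe sets the SE of this Lmnb1 probe set was 0.32 with the covariate and 0.24 without. The other Lmnb1 and Lmnb2 probe sets were at -1.07 and -0.87 with it, not called. With macrophage markers added none of the 6 was called, in a fit that called 0 of all 18193 genes. Values are log2 expression as deposited, a change is ADR minus untreated, and calls were made where limma's paired fit over all genes gave an adjusted p below 0.05. By that rule 4 of the 6 genes were lower and 1 was higher, against 12.8% of all genes called lower, 13.7% called higher and 26.5% called in either direction. A fall in 12 of 12 lymphomas was seen in 4.17% of all genes. The median change of the 6 genes was -1.07, against -0.01 over all genes. For none of the 6 did the ADR and untreated arrays separate completely, which 0.297% of genes did.

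Promoter windows of the falling genes Lbr, Tmpo and Lmnb2, and of Emd, which did not pass, are printed so that their letters can be compared. The windows run from 250 bases before to 50 bases after a gene's start and come from RefSeq on GRCm38.p6. The table held 5 of the 6 genes. Lmnb1 and Lmna are not shown, the windows of Lmna being at starts inside the gene, and for genes with several starts the one farthest upstream was taken. Each runs 5′ to 3′ on the gene's own strand, with matches to 4 motifs in capitals on either strand.
Lbr (chr1:181842352-181842651, minus strand): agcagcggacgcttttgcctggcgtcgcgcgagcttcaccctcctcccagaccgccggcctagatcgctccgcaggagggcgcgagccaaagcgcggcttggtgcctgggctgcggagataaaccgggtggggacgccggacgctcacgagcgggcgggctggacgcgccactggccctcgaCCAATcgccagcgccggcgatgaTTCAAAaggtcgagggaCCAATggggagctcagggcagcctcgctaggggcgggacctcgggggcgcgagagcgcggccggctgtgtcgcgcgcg
Tmpo (chr10:91171570-91171869, minus strand): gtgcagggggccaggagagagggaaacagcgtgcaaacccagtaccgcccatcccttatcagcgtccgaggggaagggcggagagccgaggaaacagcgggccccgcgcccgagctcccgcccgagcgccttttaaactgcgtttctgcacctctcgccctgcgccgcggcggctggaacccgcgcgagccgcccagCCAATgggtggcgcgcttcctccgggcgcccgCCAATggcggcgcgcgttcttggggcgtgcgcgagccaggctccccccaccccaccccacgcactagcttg
Lmnb2 (chr10:80918196-80918495, minus strand): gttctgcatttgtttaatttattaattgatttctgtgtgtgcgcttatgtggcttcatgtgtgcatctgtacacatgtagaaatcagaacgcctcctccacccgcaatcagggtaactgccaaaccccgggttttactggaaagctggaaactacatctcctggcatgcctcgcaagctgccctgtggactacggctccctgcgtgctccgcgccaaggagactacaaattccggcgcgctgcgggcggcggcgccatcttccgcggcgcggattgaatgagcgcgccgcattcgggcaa
Emd (chrX:74254437-74254736, plus strand): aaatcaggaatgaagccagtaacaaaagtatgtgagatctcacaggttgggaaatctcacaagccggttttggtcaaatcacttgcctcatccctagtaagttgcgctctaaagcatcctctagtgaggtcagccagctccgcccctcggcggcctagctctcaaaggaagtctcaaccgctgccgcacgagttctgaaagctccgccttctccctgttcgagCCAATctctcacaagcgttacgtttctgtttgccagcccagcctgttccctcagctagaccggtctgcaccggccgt

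The motifs searched were CCAAT, the box bound by NF-Y, TTTGAA, the cell cycle homology region (CHR) of many mitotic promoters, TTTCGCG or TTTGGCG or TTTCCCG as E2F-like cores, and CACGTG, an E-box that MYC can bind. The Lbr window held 2 CCAAT boxes, which began 68 and 28 bases upstream of the start, with a CHR element between them, on the opposite strand, at 45 bases upstream. The Tmpo window held 2 CCAAT boxes, at 53 and 21 bases upstream, and the Emd window held 1, at 27 bases upstream. The Lmnb2 window held none of these letters. Of 32851 windows of this length, 37.4% held CCAAT, 17.9% the CHR letters, 5.58% an E2F-like core, 7.15% the E-box and 6.95% both CCAAT and CHR letters. No motif overlapped another in the windows shown.

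Lmnb1 encodes lamin B1. Its level in ADR arrays ranged from 6.54 to 9.43 with a median of 7.17, and in untreated arrays from 7.45 to 9.61 with a median of 9.32. Of the 12 ADR arrays, 8 lay below the lowest untreated array, and the highest ADR array, that of lymphoma 3802, lay among the untreated ones. The mean was 7.35 ± 0.83 in ADR and 8.94 ± 0.78 in untreated arrays (SD, n = 12 each), a log2 change of -1.58 (SE 0.24, limma adjusted p = 0.000311), or 2.99-fold lower. Changes of single lymphomas ran from -2.84 in lymphoma 3769 to -0.17 in lymphoma 3802, and 9 of 12 exceeded 1 in size. Untreated Lmnb1 differed between lymphomas as well, with 7.45 in lymphoma 2949 and 7.77 in lymphoma 6054. These lymphomas, with low Lmnb1 before treatment, had changes of -0.24 and -0.49. Yet lymphoma 3802, with the smallest change, had the highest untreated value (9.61), and lymphoma 7050, at 8.19 untreated, changed by -1.46. The change contains the untreated value, and a relation between change and untreated level was not tested.

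Lmnb2 encodes lamin B2. Its level in ADR arrays ranged from 5.06 to 6.77 with a median of 6.03, and in untreated arrays from 5.92 to 7.24 with a median of 6.90. The groups overlapped more than for Lmnb1, with 5 ADR arrays below the lowest untreated one. The mean change was -0.73 (SE 0.11, limma adjusted p = 0.000294), or 1.66-fold lower, and single lymphomas ran from -1.35 in lymphoma 3769 to -0.03 in lymphoma 1467.

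Lbr encodes the lamin B receptor, an inner membrane protein that binds B-type lamins and heterochromatin and also acts as a sterol reductase. Its level in ADR arrays ranged from 8.15 to 11.14 with a median of 10.27, and in untreated arrays from 10.81 to 11.81 with a median of 11.51. All but 1 of the ADR arrays, again that of lymphoma 3802, lay below the lowest untreated array. The change was -1.40 (SE 0.17, limma adjusted p = 6.1e-05), or 2.65-fold lower, from -2.65 in lymphoma 5560 to -0.42 in lymphoma 3802. The SD over lymphomas was 0.78 in ADR and 0.29 in untreated arrays.

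Tmpo encodes the LAP2 proteins, splice forms that bind lamins and chromatin. Its level in ADR arrays ranged from 8.26 to 10.09 with a median of 8.85, and in untreated arrays from 9.75 to 10.80 with a median of 10.30. Of the 12 ADR arrays 11 lay below every untreated array, the exception being lymphoma 3802. The change was -1.48 (SE 0.13, limma adjusted p = 1.32e-05), or 2.79-fold lower, from -2.41 in lymphoma 2581 to -0.61 in lymphoma 3802. Lymphoma 3802 had the smallest fall of Lmnb1, Lbr and Tmpo among the 12, and also the smallest fall of mitosis genes, with a mean over 25 listed genes of -0.97. Not every lymphoma followed that order. Lymphoma 5560, with -1.10 for mitosis genes, had the largest fall of Lbr (-2.65). Lymphoma 2949, with the largest mitosis fall (-4.01), had Lmnb1 at -0.24. Over the 12, r with the mitosis change was -0.152 for Lmnb1, -0.214 for Lbr and 0.325 for Tmpo, and none passed.

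Emd encodes emerin, an inner membrane protein that binds A-type lamins and the chromatin protein BAF. Its level in ADR arrays ranged from 8.27 to 9.09 with a median of 8.74, and in untreated arrays from 8.49 to 9.07 with a median of 8.77. The groups lay over each other. The change was -0.05 (SE 0.08, limma adjusted p = 0.698), below 0 in 7 lymphomas and above 0 in 5.

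Lmna encodes lamins A and C. Its level in ADR arrays ranged from 6.66 to 10.45 with a median of 9.18, and in untreated arrays from 6.43 to 9.51 with a median of 7.43. The groups overlapped, with 4 ADR arrays above the highest untreated one, and lymphoma 1570 was lowest and lymphoma 403 highest in both groups. The mean was 8.81 ± 1.24 in ADR and 7.52 ± 0.92 in untreated arrays (SD, n = 12 each), a change of 1.29 (SE 0.28, limma adjusted p = 0.00351), or 2.45-fold higher. Single lymphomas ran from -0.64 in lymphoma 1467, the only fall, to 2.85 in lymphoma 5560. Its SD over lymphomas was the largest of the 6 genes in both groups.

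**Figure D1:**
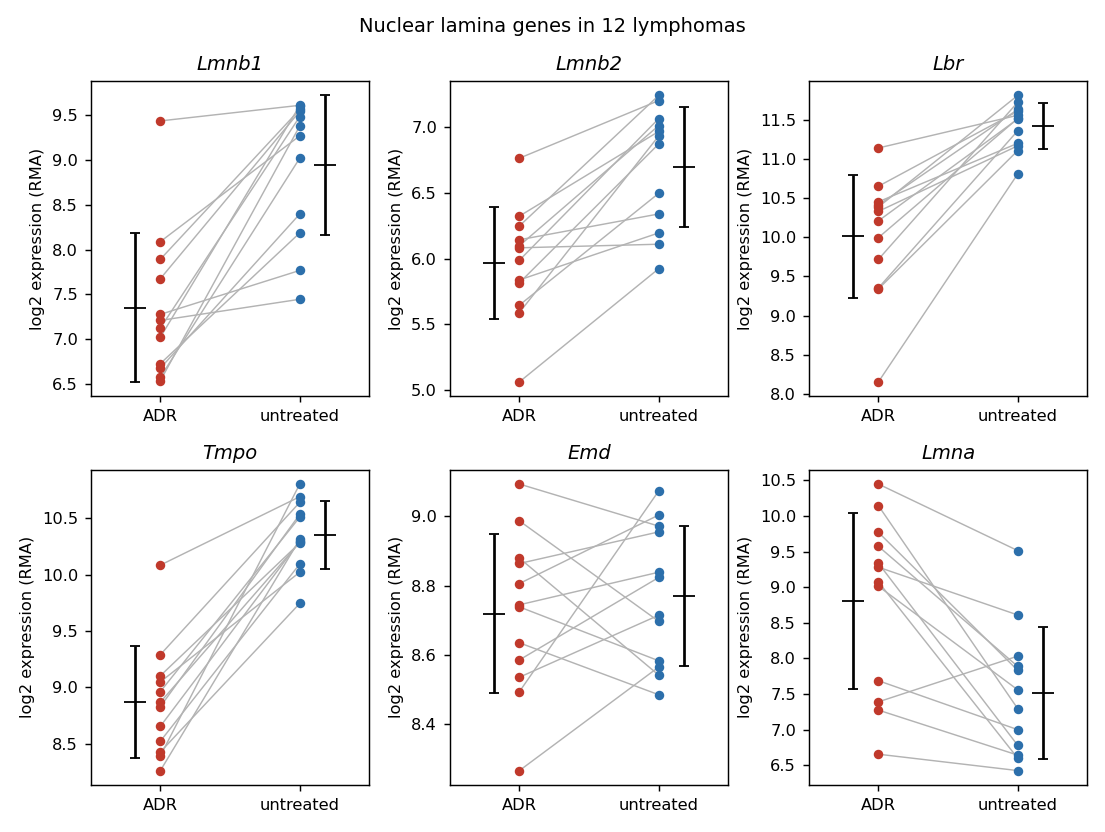
Log2 expression of the 6 lamina genes in ADR (red, left) and untreated (blue, right) arrays, with a line joining the arrays of 1 lymphoma and bars for the mean ± SD of 12 arrays. Lines for Lmnb1, Lmnb2, Lbr and Tmpo are lower at the ADR end in 12 of 12 lymphomas, those for Lmna are higher in 11 of 12, and those for Emd cross. Each panel has its own axis, which does not start at 0.

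Probe sets of a gene read different stretches of its transcripts, and they differed in size more than in direction. Over all 34945 probe sets, 12.5% were called lower and 11.3% higher. Of the 17 lamina probe sets, 10 were lower, 4 were higher and 3 did not pass. Those that passed were lower for Lmnb1, Lmnb2, Lbr and Tmpo and higher for Lmna. The weaker Lmnb1 probe set changed by -1.89 (SE 0.25, limma adjusted p = 0.000139), beyond the -1.58 of the brighter one. The weaker Lmnb2 probe set changed by -1.17 against -0.73 in the brighter one.

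For Tmpo, 5 of 6 probe sets were lower, by between -0.29 and -1.62, and the other changed by -0.08 (limma adjusted p = 0.58). For Lmna, 4 of 5 were higher, by 0.32, 0.82, 1.29 and 1.84, and the other changed by 0.09 (limma adjusted p = 0.558). The largest of these came from a probe set that averaged 5.93 in ADR and 4.10 in untreated arrays. The suffix of its name marks probes shared between transcripts. Of the 17 probe sets, 4 averaged 4.47 (the highest median of any array) or less in both groups, where values are compressed, and 2 of these passed. Among the other 13, 12 passed and the remaining one was that of Emd.

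**Figure D2:**
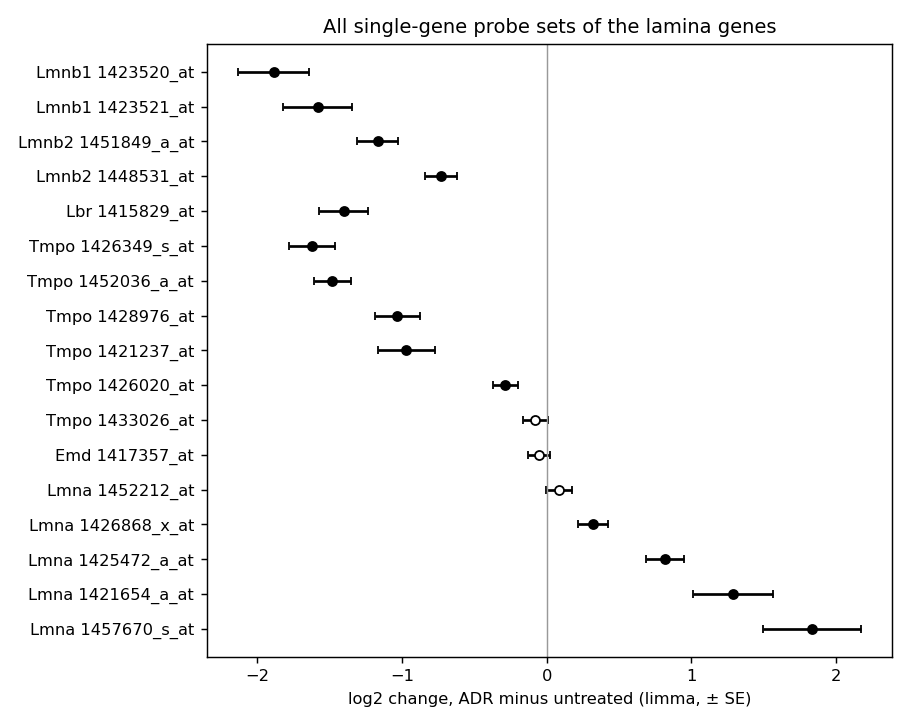
Log2 change, ADR minus untreated, of all 17 single-gene probe sets of the lamina genes, with the SE from limma as bars. Filled points passed at an adjusted p under 0.05 over 34945 probe sets and open points did not. All filled points of Lmnb1, Lmnb2, Lbr and Tmpo lie left of 0 and all those of Lmna lie right of it.

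The changes of B-type and A-type lamin genes differed within lymphomas in the deposited values, and each gene's change was related to that of the fibroblast markers. Against the fibroblast marker change, r was 0.705 for Lmna, -0.742 for Lmnb2 and -0.687 for Lmnb1. With fibroblast markers as a covariate Lmnb1 was at -0.69 and Lmna at 0.23, and with both marker covariates each was at -0.30. In the fit of probe sets with both covariates, their SEs were 0.48 for Lmnb1 and 0.52 for Lmna. That fit called 0 of 34945 probe sets. The other Lmnb1 probe set was at -0.81 (SE 0.56) there, and the other Lmna probe sets ran from -0.15 to 0.38. The difference itself was not tested with covariates. Levels of different probe sets cannot be set against each other, so the change of one gene was subtracted from that of the other in each lymphoma. Lmnb1 minus Lmna ranged from -5.29 in lymphoma 5560 to -0.54 in lymphoma 1467 with a median of -3.13, and it was below 0 in 12 of 12. Its mean was -2.87 (SE 0.48, n = 12, exact sign-flip permutation p = 0.000488, the smallest this test can give, adjusted p = 0.00146 over 3 pairs of lamins). Lmnb2 minus Lmna averaged -2.02 (SE 0.39, exact sign-flip adjusted p = 0.00146) and was below 0 in 11 lymphomas and at 0.61 in lymphoma 1467. That lymphoma was the one in which Lmna fell.

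The changes of the brightest probe sets of the 2 B-type genes also differed from each other. Lmnb1 minus Lmnb2 averaged -0.85 (SE 0.19, n = 12, exact sign-flip adjusted p = 0.00293), a larger fall of Lmnb1, and was below 0 in 10 of 12 lymphomas, from -1.71 in lymphoma 1570 to 0.27 in lymphoma 3802. With the other probe set of each gene the fall of Lmnb1 was -1.89 and that of Lmnb2 -1.17. The brighter Lmnb1 probe set, at -1.58, lay closer to that weaker Lmnb2 probe set. The p-value covers the spread between lymphomas and not differences in response between probe sets. Within the 7 lymphomas whose treated array file is named DOX the mean was -0.51 and did not pass (exact sign-flip adjusted p = 0.0938).

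**Figure D3:**
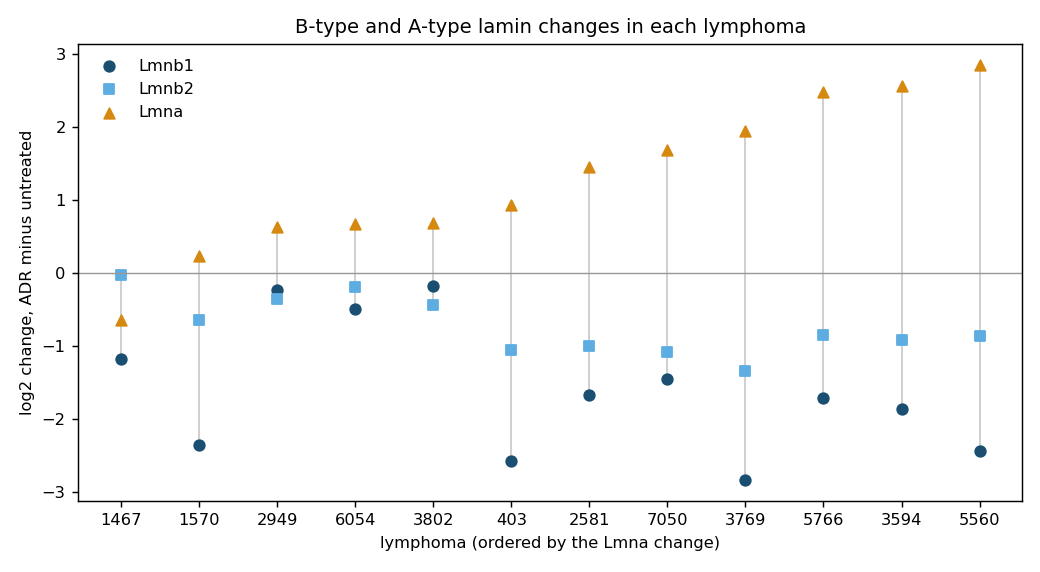
Log2 change, ADR minus untreated, of Lmnb1 (circles), Lmnb2 (squares) and Lmna (triangles) in each of 12 lymphomas, ordered by the Lmna change, with a grey line over the range of the 3 genes. The triangle is on top in every lymphoma but 1467, where Lmna changed by -0.64 and Lmnb2 by -0.03.

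RNA of other cells changed in the same arrays. The arrays measured a mixture, so fewer cells of a type and less RNA per cell cannot be told apart. B cell markers were present throughout: the sum of the log2 values of 13 markers lay between 105.02 and 132.69 in ADR arrays and between 117.02 and 132.37 in untreated arrays, and none was near the floor. Their median change was -0.27, with 5 of 13 lower and 0 higher, the largest being those of Cd22 (-1.33), a B cell surface lectin, and Cd24a (-1.11), a surface antigen. Fibroblast markers were higher in 27 of 31 cases, with a median change of 1.94. The sum of their log2 values lay between 141 and 275 in ADR arrays and between 130 and 156 in untreated arrays, and 3 of 31 were at or below 4.47 in both groups. Cald1, an actin-binding protein gene, changed by 4.09 and Fn1, fibronectin, by 3.47.

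Macrophage markers were higher in 15 of 23 cases, with a median change of 1.32. Their sums lay between 133 and 193 in ADR arrays and between 111 and 172 in untreated arrays, and 4 of 23 were near the floor in both. Ms4a7 changed by 2.89 and Adgre1, a macrophage surface receptor gene, by 2.19. Neutrophil markers were higher in 4 of 12 cases (sums 52.9 to 78.1 in ADR and 48.8 to 65.5 in untreated arrays, 6 near the floor), with Lcn2 at 2.77 and Mmp8 at 2.46. Of 16 T and NK cell markers 2 were higher and 1 was lower (sums 75.3 to 89.2 in ADR and 75.0 to 88.5 in untreated arrays, 7 near the floor). Over all genes 12.8% were called lower and 13.7% higher. Il7r, with a median of 8.77 in untreated arrays, was higher by 1.01 (limma adjusted p = 0.00583), while Cd28, at 0.53, did not pass (limma adjusted p = 0.143). Cd3d, Cd3e and Cd3g did not pass either, and which cells carried the Il7r signal was not tested. The part of neutrophils and of T and NK cells in the lamina changes was not tested.

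With the fibroblast marker mean of each array as a covariate, 2 of the 6 lamina genes were called, Tmpo (log2 change -1.22, limma adjusted p = 0.00637) and Lbr (-0.62, limma adjusted p = 0.0398), both lower, against 3.46% of genes called lower in that fit. Emd was at -0.33 (limma adjusted p = 0.107). With macrophage markers as a further covariate, limma called 0 of 18193 genes, with 2126 at an unadjusted p under 0.05. In that fit Tmpo was at -0.75, Lbr at -0.73, Lmnb1 and Lmna at -0.30 each and Lmnb2 at -0.04. The probe sets of Lmnb2 differed there, the weaker one being at -0.72 (SE 0.37) in the fit of probe sets with both covariates. With the fibroblast covariate alone that probe set was at -0.87 (SE 0.24, limma adjusted p = 0.0593). Without lymphomas 403 and 5560, which had the largest fibroblast marker changes, the calls of all 5 genes held, with Lmnb1 at -1.40 and Lmna at 1.17. In that subset 26 of 31 fibroblast markers (median change 1.46) and 13 of 23 macrophage markers (median change 1.43) were still higher.

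In 4 lymphomas the fibroblast marker mean changed by less than 1, and their values can be read singly. Macrophage markers changed by 1.48 in lymphoma 1467, 0.95 in lymphoma 1570, 0.43 in lymphoma 2949 and 1.36 in lymphoma 3802. In lymphoma 1467 the fibroblast marker mean changed by -0.07, and Lmnb1 changed by -1.18, Tmpo by -1.35 and Lbr by -0.84. In lymphoma 1570 it changed by 0.76, and Lmnb1 changed by -2.35, Tmpo by -1.70 and Lbr by -0.75. In lymphoma 2949 it changed by 0.54, and Lmnb1 changed by -0.24, Tmpo by -1.32 and Lbr by -0.96. In lymphoma 3802 it changed by 0.68, and Lmnb1 changed by -0.17, Tmpo by -0.61 and Lbr by -0.42. All 3 genes were lower in each of these lymphomas, by amounts that for Lmnb1 spanned the range from slight to large. Lmnb2 changed by -0.03, -0.65, -0.36 and -0.44 in lymphomas 1467, 1570, 2949 and 3802. Lmna changed by -0.64, 0.23, 0.63 and 0.69 in lymphomas 1467, 1570, 2949 and 3802. Lmnb1 minus Lmna was -0.54, -2.58, -0.87 and -0.86 there.

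Across the 12 lymphomas, 18 relations were computed between the change of a lamina gene and that of the fibroblast, macrophage or mitosis list, and those that passed were with fibroblast markers. Lbr fell more where fibroblast markers rose more (Pearson r = -0.870, Spearman rho = -0.853, permutation adjusted p = 0.00432 and 0.0139), and r was -0.898 once lymphomas 403 and 1467, which lay farthest out in marker change, were removed. Lmna rose more there (r = 0.705, rho = 0.769, permutation adjusted p = 0.049 and 0.022), with r = 0.891 without those lymphomas. Lmnb2 had r = -0.742 (rho -0.776, permutation adjusted p = 0.049 and 0.022) and -0.648 without them. Lmnb1 had r = -0.687 (permutation adjusted p = 0.0515) and rho = -0.811 (0.0184), and r = -0.669 without them. Emd had r = 0.722 (rho 0.734, permutation adjusted p = 0.049 and 0.0307), and 0.472 without them (permutation p = 0.167). The 7 DOX lymphomas include neither of them, and r for Emd was 0.643 there. Tmpo had r = -0.381 (rho -0.441, permutation adjusted p = 0.572 and 0.464).

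Within the 7 DOX lymphomas r with the fibroblast change was -0.938 for Lmnb1 (exact permutation p = 0.000794), -0.822 for Lmnb2 (exact p = 0.0312), 0.901 for Lmna (exact p = 0.0129), -0.855 for Lbr (exact p = 0.0111), -0.656 for Tmpo (exact p = 0.113) and 0.643 for Emd (exact p = 0.131). No correlation was computed in the 5 sen lymphomas. Against the macrophage change no relation passed (r from -0.511 for Tmpo to 0.256 for Lmna, smallest permutation adjusted p = 0.263). Within the 7 DOX lymphomas, r with the macrophage change was -0.787 for Lmnb1 (exact permutation p = 0.0409), -0.781 for Lmnb2 (exact p = 0.0466), 0.733 for Lmna (exact p = 0.0772), 0.706 for Emd (exact p = 0.0804), -0.391 for Lbr (exact p = 0.39) and -0.417 for Tmpo (exact p = 0.358). The p-values within the DOX set are not adjusted. Against the mitosis change none passed either (r from -0.214 for Lbr to 0.325 for Tmpo, smallest permutation adjusted p = 0.598 for r and 0.491 for rho), although all 25 mitosis genes fell, with a median change of -2.14. Both measures in each relation come from the same pair of arrays.

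**Figure D4:**
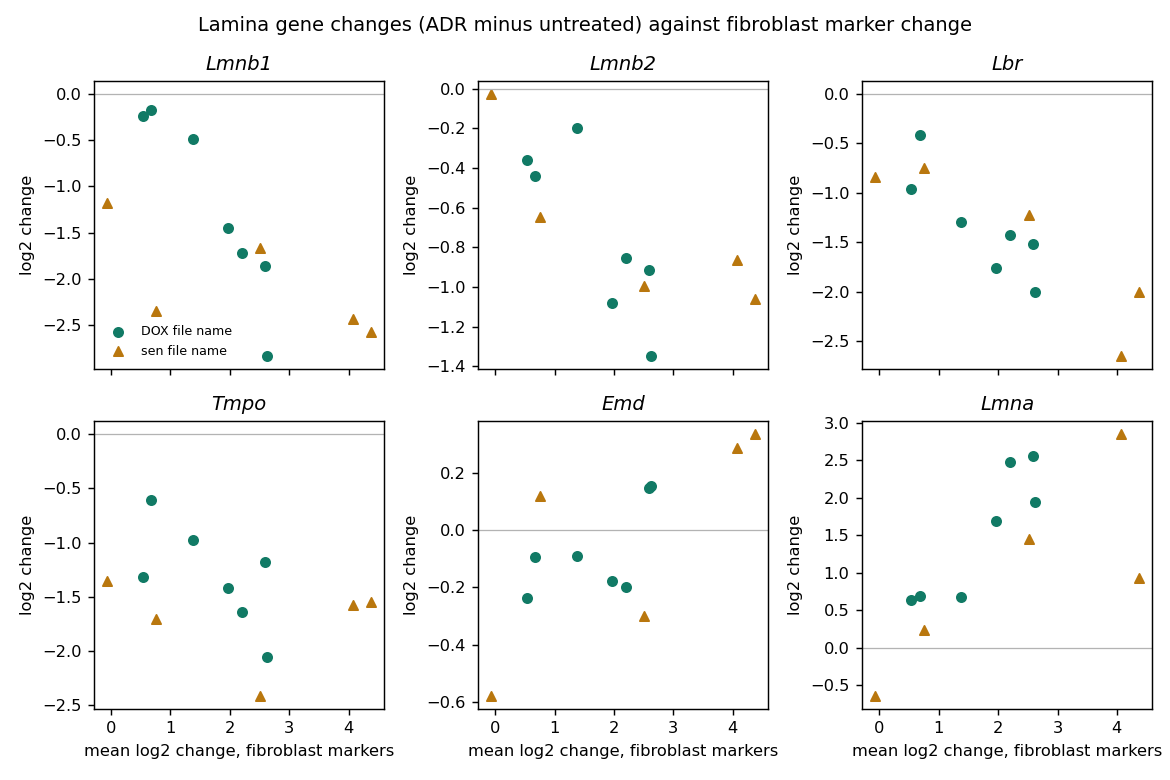
Log2 change, ADR minus untreated, of each lamina gene against the mean log2 change of 31 fibroblast markers in the same lymphoma. Circles are the 7 lymphomas whose treated array file is named DOX and triangles the 5 named sen. Points fall to the right for Lbr (r = -0.870), Lmnb2 and Lmnb1 and climb for Lmna (r = 0.705) and Emd.

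The names of the treated array files were compared because they may mark processing sets. In the DOX set the changes were -1.25 for Lmnb1, -0.74 for Lmnb2, -1.34 for Lbr, -1.31 for Tmpo, 1.52 for Lmna and -0.07 for Emd. In the sen set they were -2.04, -0.72, -1.49, -1.72, 0.97 and -0.03 in the same order of genes. Limma's interaction of ADR with the naming set called 0 of 18193 genes (0%), with 1237 at an unadjusted p under 0.05. For Lmnb1 the difference between the sets was 0.79 (SE 0.45, limma adjusted p = 0.776).

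Among 11371 other genes above the floor, those whose deposited values followed Lmnb1 most closely over the 24 arrays were Asf1a (Pearson r = 0.957), Ints10 (0.938), Rnaseh2a (0.935), U2af1 (0.932) and Srsf4 (0.932). Asf1a encodes a histone chaperone and Rnaseh2a a subunit of an RNase that cuts RNA paired with DNA. Closest to Lmna were Cd9 (r = 0.939), Sh3pxd2b (0.921), Metrnl (0.902), Snx24 (0.895) and Anxa3 (0.894). Cd9 is a tetraspanin gene and Sh3pxd2b encodes a scaffold of podosomes. Closest to Tmpo were Mms22l (0.963) and Hmgb3 (0.957), to Lmnb2 Hirip3 (0.950) and Nup85 (0.944), to Lbr Tex30 (0.942) and Hmgn5 (0.935), and to Emd S100pbp (0.730) and Cdkn2aip (0.703). Among the lamina genes themselves, Lmnb1 had r = 0.888 with Tmpo, 0.811 with Lmnb2 and 0.753 with Lbr, and -0.528 with Lmna. These values are descriptions over 24 arrays that share 12 lymphomas, 2 treatments and the mixture of cells.

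Other nuclear envelope genes, listed by role, showed both directions. Beside the counts of each list stand the shares over all genes: 12.8% called lower, 13.7% higher and 26.5% in either direction. With the fibroblast covariate 3.46% of all genes were called lower and 443 of 18193 were called higher. Beside the lamina, 14 further inner nuclear membrane genes were measured: 5 were higher and 2 lower, with a median change of 0.02. Nrm, which encodes nurim, ranged from 5.08 to 6.22 in ADR arrays (median 5.78) and from 6.69 to 8.08 in untreated arrays (median 7.68), without overlap. It was 3.15-fold lower (log2 change -1.65, SE 0.16, limma adjusted p = 1.65e-05). The higher ones were led by Tmem120a (1.07, limma adjusted p = 0.000156), Tmem43 (0.82, limma adjusted p = 0.00103) and Tor1aip1, which encodes the lamina-binding protein LAP1 (0.72, limma adjusted p = 0.00117). With the fibroblast covariate Nrm was at -1.61 and Tor1aip1 at 1.10, both called, while Tmem120a (0.53) and Tmem43 (0.54) were not.

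Of 9 genes of the LINC complex, which couples the lamina to the cytoskeleton, 2 were lower, 1 was higher and 6 did not pass, with a median change of -0.06. Over all genes 26.5% were called in either direction. Syne3, encoding nesprin 3, was 1.71-fold lower (limma adjusted p = 0.000827) and Spag4, of the SUN-domain family, 1.26-fold lower (limma adjusted p = 0.0223), while Syne1, encoding nesprin 1, was 1.38-fold higher (limma adjusted p = 0.0102). The call of Spag4 was lost without lymphoma 3769 or 5766 (limma adjusted p = 0.0507 and 0.0504), and none of the 3 was called with the fibroblast covariate. With the mean over its probe sets Syne1 was at 0.10 (limma adjusted p = 0.354), and in the DOX set alone its call was lost as well (limma adjusted p = 0.129). Of 6 genes listed as lamin maturation enzymes, 1 passed: Fntb, the beta subunit of farnesyltransferase, at -0.21 (limma adjusted p = 0.0458). Its call was lost without any one of lymphomas 2581, 2949, 3594, 3769, 3802, 5560, 5766 and 7050, with a limma adjusted p of up to 0.0987. The median of that list was -0.01.

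Chromatin partners of the lamina were lower in 5 of 9 cases and higher in 0, with a median change of -0.32. Cbx5, encoding the heterochromatin protein HP1 alpha that binds Lbr, was 2.38-fold lower (limma adjusted p = 2.52e-05). Psip1, a chromatin-binding coactivator gene, was 1.94-fold lower (limma adjusted p = 3.24e-05) and Cbx1, encoding HP1 beta, 1.74-fold lower (limma adjusted p = 0.00116). All 3 were lower in 12 of 12 lymphomas, and 2 of the list, Cbx5 (-1.20) and Psip1 (-0.68), were called with the fibroblast covariate. Nuclear pore genes were lower in 21 of 28 cases and higher in 0, with a median of -0.40. Nup210, a membrane nucleoporin gene, was at -1.19 (limma adjusted p = 0.00279), Nup37 at -1.13 (limma adjusted p = 2.26e-05) and Nup107 at -0.98 (limma adjusted p = 6.72e-05), the last 2 members of the Y-shaped scaffold complex. With the fibroblast covariate 4 pore genes were called, all lower, and Nup210 was at -0.12.

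Genes that take the envelope apart and rebuild it in mitosis were lower in 5 of 19 cases and higher in 1, with a median of 0.04. The shares over all genes were 12.8% lower, 13.7% higher and 26.5% in either direction. The falls were those of mitotic regulators: Ccnb2, a cyclin, was 5.63-fold lower, Nek2, a kinase, 4.59-fold lower and Plk1, a kinase that phosphorylates mitotic targets, 4.30-fold lower (limma adjusted p = 2.52e-05, 3.31e-05 and 8.08e-06). With the fibroblast covariate 5 genes of the list were called lower and 0 higher. Chmp4b, of the membrane-sealing ESCRT-III complex, was 1.15-fold higher (limma adjusted p = 0.012).

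**Figure D5:**
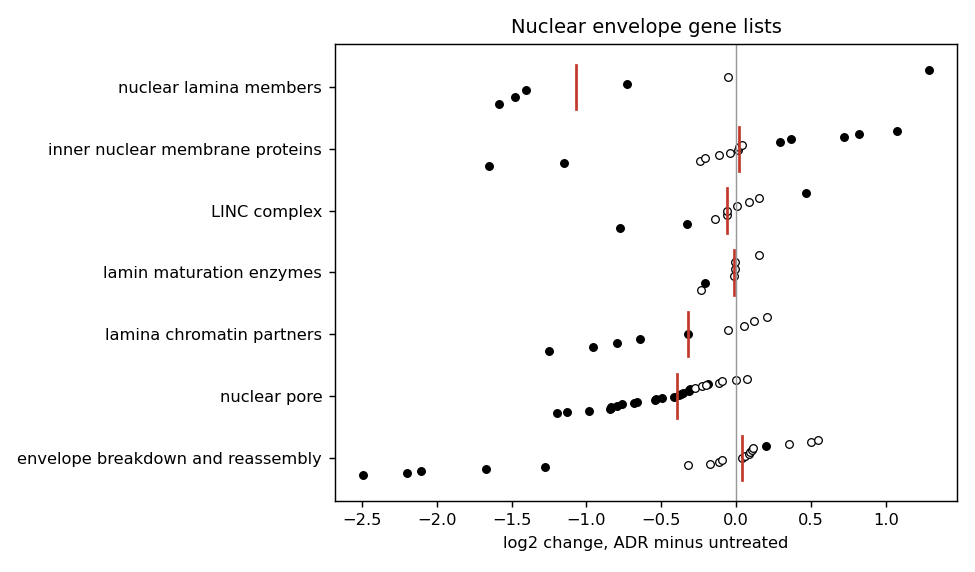
Log2 change, ADR minus untreated, of every measured gene of 7 nuclear envelope lists, with filled points for genes that passed and red lines at list medians. Lamina members reach from -1.58 (Lmnb1) to 1.29 (Lmna), pore genes lie mostly below 0, and breakdown and reassembly genes split into a low set led by Ccnb2 (-2.49) and the rest near 0.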

How the data were processed

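RNA of 12 lymphomas, each with ADR and untreated, was labelled with biotin and hybridised to Affymetrix arrays, per the labels' protocols. The authors deposited 1 log2 value per probe set and array; RMA and Partek are named in the submitters' processing notes, with no version or setting stated. That they are on a log2 scale follows from their range (1.97 to 14.36, array medians 4.38 to 4.47). RMA compresses low values, so changes of weak probe sets look smaller, and for arrays the number of lymphomas limits precision.

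The table held 45101 probe sets, 34945 with 1 gene symbol, 932 with several, 9160 with none and 64 controls. For each of 18193 genes the brightest single-gene probe set on average was taken. Paired changes were fitted with limma 3.58.1 (R 4.3.3), blocking on lymphoma, with Benjamini-Hochberg adjustment over all genes or all probe sets. Pairing comes from lymphoma numbers in the titles and the stated matched pairs. Deviations from group means correlated at 0.257 to 0.589 within the 12 pairs. In 10 of 12 the ADR array correlated most with the untreated array of its own lymphoma. For lymphomas 1467 and 5766 the untreated array of another lymphoma was closer. No 2 arrays were identical, and r between arrays was 0.908 or more. The labels do not say whether differently numbered lymphomas came from different mice, so p-values measure the spread between these lymphomas.

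Lamin pairs were compared by an exact two-sided sign-flip test over 4096 sign patterns. Relations were tested two-sided by permutation (100000 resamples; every ordering for the 7 DOX lymphomas). Python 3.11.15 ran these with scipy 1.17.1, numpy 2.4.6 and pandas 2.3.3; figures used matplotlib 3.10.9. On simulated data for ADR minus untreated over 18193 genes, 80 genes changed by 0.5 in size, 80 by 1 and 40 by 2 on the log2 scale. Noise was drawn independently for each gene, and fewer genes changed than the 26.5% called in the data, so the rates are those of this setting. The fit recovered 65% of changes of 0.5, 88.8% of 1 and 100% of 2, with 5.23% of calls false. For the naming set interaction it recovered 11.2%, 62.5% and 92.5%.

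The members, gene lists, tests and naming rule were chosen with earlier results of these data known. Genes named are the 6 members, in each envelope list up to 3 called genes that moved farthest the way most did and the 1 that moved farthest the other way, in each marker list the 2 largest changes, and the genes most correlated with each member (5 for Lmnb1 and Lmna, 2 for the others).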

Additional observations from a re-analysis of the deposited data

How the results depend on the processing

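The direction of the Lmnb1, Lmnb2, Lbr and Tmpo falls held in all 24 alternatives run, and that of Lmna in 23, the exception being the fit with both marker covariates (-0.30). Leaving out each lymphoma in turn kept all 5 calls (Lmnb1 -1.71 to -1.47, Lmnb2 -0.80 to -0.68, Lbr -1.49 to -1.29, Tmpo -1.56 to -1.40, Lmna 1.15 to 1.47), as did array centring, quantile normalization, the filter on dim genes, eBayes with trend, other choices of probe set and, with 3210 genes called, the comparison without pairing (no replicate block). That comparison called 5192 probe sets.

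With the fibroblast covariate 1072 genes, 1543 probe sets, 2 members and 3 member probe sets were called, and with both covariates 0 of each by limma. Calls lost with the fibroblast covariate were Lmnb1 (-0.69), Lmnb2 (-0.31) and Lmna (0.23), and with both covariates Lmnb1 (-0.30), Lmnb2 (-0.038), Lbr (-0.73) and Tmpo (-0.75). These values are of the brightest probe set of each gene. The other Lmnb2 probe set was at -0.87 with the fibroblast covariate and at -0.72 with both, not called in either fit. In the 5 sen lymphomas alone 811 genes and 2 members were called, and Lmnb2 (-0.72), Lbr (-1.49) and Lmna (0.97) did not pass; fewer samples entered that fit. Lmnb1 minus Lmnb2 did not pass in the DOX set (-0.51). With the mean over probe sets, the relation to fibroblast markers no longer passed for Lmnb2 (r = -0.641) or Emd (0.722). Emd has 1 probe set, so its r was unchanged and only the adjustment over the 18 relations moved. The r with mitosis turned sign for Lmnb2 (0.014) and Tmpo (-0.000501). Why the values of Lmnb2 and Tmpo moved was not tested.

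Among other named genes, the direction turned with both covariates for Tmem43 (-0.17), Cbx1 (0.21), Chmp4b (-0.062), Cd24a (0.87) and Fn1 (-0.39), and with the fibroblast covariate for Cd24a (0.037) and Cd28 (-0.12), none with a call. Quantities near 4.47 or below are limited by the floor of the array values.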
